A study of Mus musculus with 11 samples.

Results

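Guanylin and uroguanylin are small peptides that intestinal epithelial cells release into the gut lumen, and both bind the same receptor. The genes described here are Guca2a, which encodes the guanylin precursor, Guca2b, which encodes the uroguanylin precursor, Gucy2c, which encodes their receptor guanylate cyclase C, and Cftr, the chloride and bicarbonate channel that opens downstream. They were chosen by symbol from the deposited RPKM table (reads scaled by gene length and by library total), and all 4 of 4 were found among its 11366 genes. All 4 also passed the filter used for testing, a level of 1 RPKM or more in 3 or more libraries, which left 10482 genes.

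When either peptide binds guanylate cyclase C at the brush border, the receptor makes cyclic GMP inside the cell. Cyclic GMP activates protein kinase G type II, which phosphorylates CFTR so that chloride and bicarbonate leave the cell, and the same signal inhibits sodium uptake by the exchanger NHE3. Water follows the salt, which is how the pathway wets and alkalinizes the intestinal surface. Bacterial heat-stable enterotoxins act on the same receptor.

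The libraries came from small-intestinal epithelium of wild-type mice of 3 groups. NFF mice (n = 4) ate a diet low in fermentable fiber and had no treatment. SFB mice (n = 4) ate standard chow and were colonized with SFB, read here as segmented filamentous bacteria, which attach to the ileal epithelium. Control mice (n = 3) ate standard chow with no treatment. Cells of every group were live sorted epithelium positive for EpCAM and negative for CD45, CD31 and CD44. The sort against CD44, a protein of crypt cells, was the same in all 3 groups. The Cd44 message itself was called higher in SFB than in NFF, as given with the crypt markers. The labels give no age. Nothing in them ties libraries to individual mice, and the spread behind the p-values may therefore be technical.

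Both peptides are cut from the C-terminal end of their precursors. The last 15 codons of each coding sequence are shown because they are what the peptides share in sequence, while their RNA levels parted in some libraries. Cysteine codons are in capitals. The letters were read from the GENCODE M21 transcripts of GRCm38, in the direction of translation, at chr4:119639228-119639272 on the plus strand for Guca2a and chr4:119656795-119656839 on the minus strand for Guca2b.
Guca2a: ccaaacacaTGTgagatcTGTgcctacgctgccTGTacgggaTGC
Guca2b: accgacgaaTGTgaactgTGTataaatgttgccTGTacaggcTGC
The 4 cysteine codons stand at codons 4, 7, 12 and 15 in both. In mature guanylin and uroguanylin these cysteines form the disulfide bonds that hold the active shape. Of the 45 bases 29 were identical (64.4%), and 5 of the 15 codons were the same. Both coding transcripts of Guca2b end in the same 45 bases.

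Guca2a (Entrez 14915; chromosome 4, 119637704 to 119639471, plus strand) and Guca2b (Entrez 14916; chromosome 4, 119656607 to 119658954, minus strand) are neighbours that face each other. They lie 17.1 kb apart with 0 annotated genes between them, and no annotated gene overlaps either. Gucy2c (Entrez 14917; chromosome 6, 136697284 to 136781765, minus strand) overlaps no other annotated gene. Cftr (Entrez 12638; chromosome 6, 18170687 to 18322768, plus strand) holds the antisense gene Gm15592 and the pseudogene Gm15595 within its span, and the library kit does not mark the strand, so reads of Gm15592 exons could have been counted as Cftr.

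The peptides were among the most abundant messages of these cells, the receptor was moderate and Cftr was low. Ranked among all 11366 genes of a library, Guca2a stood at positions 10 to 18 in NFF, 15 to 30 in SFB and 19 to 61 in Control. Guca2b stood at 33 to 40 in NFF, 58 to 418 in SFB and 46 to 73 in Control. Gucy2c ranked 394 to 513 in NFF, 423 to 571 in SFB and 471 to 609 in Control, and Cftr between 2584 and 5842 over all libraries. The order Guca2a, Guca2b, Gucy2c, Cftr held in 10 of 11 libraries. In Control 2 Guca2b exceeded Guca2a.

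**Figure D1:**
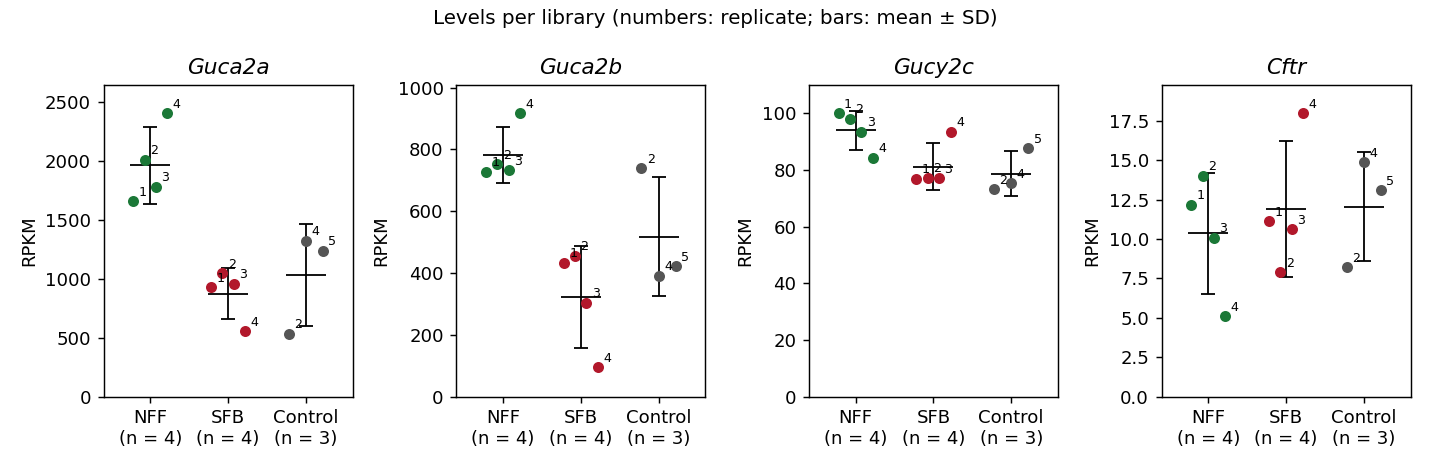
RPKM of the 4 genes (vertical axes, from 0) in each library, by group; numbers beside points are replicate numbers, horizontal marks are group means and bars are SD. All 4 NFF libraries stand above all SFB and Control libraries for Guca2a, and SFB 4 is the lowest library for Guca2b at 94.6 RPKM.

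Guca2a, the guanylin gene, was highest in NFF. It stood at 1657, 2011, 1780 and 2404 RPKM in NFF 1 to 4, at 930, 1045, 957 and 555 RPKM in SFB 1 to 4, and at 534, 1324 and 1239 RPKM in Control 2, 4 and 5. Every NFF library was above every library of the other groups, while SFB and Control overlapped. Group levels were 1963 ± 328 RPKM in NFF (SD, n = 4), 872 ± 217 in SFB (SD, n = 4) and 1032 ± 434 in Control (SD, n = 3).

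Guca2b, the uroguanylin gene, was also highest on average in NFF, but Control 2 reached the NFF range. It stood at 727, 752, 733 and 917 RPKM in NFF, at 434, 456, 304 and 94.6 RPKM in SFB, and at 740, 391 and 422 RPKM in Control. The NFF and SFB libraries did not overlap. Control overlapped both, with Control 2 inside the NFF range and Control 4 and 5 inside the SFB range. Group levels were 782 ± 90.5 RPKM in NFF, 322 ± 166 in SFB and 518 ± 193 in Control (SD, n = 4, 4 and 3).

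Gucy2c, the receptor gene, was the steadiest of the 4. Its levels were 100.1, 98.2, 93.6 and 84.4 RPKM in NFF, 77.0, 77.3, 77.2 and 93.5 RPKM in SFB, and 73.2, 75.4 and 87.7 RPKM in Control. SFB 1, 2 and 3 lay within 1 RPKM of each other and SFB 4 stood apart above them. The groups overlapped, at 94.1 ± 6.98, 81.3 ± 8.16 and 78.8 ± 7.80 RPKM in NFF, SFB and Control (SD, n = 4, 4 and 3), and the SD was 7.42% of the mean in NFF and 9.90% in Control, against 11.6% and 37.3% for Guca2b.

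Cftr, the channel gene, varied within groups more than between them. It stood at 12.2, 14.0, 10.1 and 5.11 RPKM in NFF, at 11.1, 7.89, 10.6 and 18.0 RPKM in SFB, and at 8.21, 14.9 and 13.1 RPKM in Control. NFF 4 was its lowest library and SFB 4 its highest, the reverse of their places for Guca2b. Group levels were 10.4 ± 3.85, 11.9 ± 4.29 and 12.1 ± 3.46 RPKM in NFF, SFB and Control (SD, n = 4, 4 and 3).

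Differences between groups were tested on log2(RPKM + 1) with limma over all 10482 genes, with Benjamini-Hochberg adjustment, and a gene was called at an adjusted p under 0.05. NFF and SFB were each set against the same Control libraries, and the contrast of SFB with NFF uses the same libraries again, so the 3 comparisons are not independent. SFB and NFF differ in both diet and colonization.

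The comparison of NFF with Control addresses the diet. None of the 4 genes was called, in a comparison where limma called 0 genes (0% of those tested, smallest adjusted p = 0.303). Guca2a had a log2 fold change of 1.02 ± 0.35 (SE), with a 95% interval of 0.27 to 1.78, an unadjusted p of 0.012 and a limma adjusted p of 0.785. It was the only one of the 4 with an unadjusted p under 0.05, against 4.82% of all genes, and the only one with no overlap between NFF and Control, as 9.77% of all genes had. The difference was 0.60 without Control 2, still uncalled. Guca2b differed by 0.65 ± 0.46 (95% interval -0.36 to 1.66), Gucy2c by 0.25 ± 0.13 (-0.024 to 0.53) and Cftr by -0.24 ± 0.32 (-0.95 to 0.46), with limma adjusted p-values of 0.896 to 0.921. As fold changes, the Guca2b interval runs from 0.778 to 3.16 times the Control level. Beside these values, all 20 proliferation genes (median -0.73) and all 13 Paneth markers (-0.76) were below 0 in NFF against Control, and all 15 tuft markers (0.41), 12 of 16 enterocyte markers (0.36), 14 of 15 markers of distal small intestine (0.66) and 11 of 17 goblet markers (0.018) were above 0, with 0 called by limma in these lists. Below 0 were also 10 of 13 proximal (-0.39), 9 of 12 villus tip (-0.15) and 9 of 12 crypt and stem cell markers (-0.19). Of 18 enteroendocrine markers 12 were above 0 (0.26), and 0 were called in these lists too. Without Control 2, SFB 2 and SFB 4 the proliferation median was -1.12, that of enterocytes 0.57 and that of distal small intestine 0.33 (1 called). The proximal and villus tip medians were then above 0, at 0.77 (1 called) and 0.35. The part of the marker lists in the peptide differences was not tested.

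The comparison of SFB with Control addresses colonization on the same chow. Again 0 of the 4 genes was called, where limma called 21 genes (0.2%), and 0 had an unadjusted p under 0.05, against 12.1% of all genes. For 0 of the 4 were SFB and Control free of overlap, against 9.71% of all genes. Guca2b had the largest difference of the 4, at -0.85 ± 0.46 (95% interval -1.86 to 0.16, limma adjusted p = 0.491), and was -0.34 without SFB 4. Guca2a differed by -0.17 ± 0.35 (-0.93 to 0.58), Gucy2c by 0.043 ± 0.13 (-0.24 to 0.32) and Cftr by -0.035 ± 0.32 (-0.74 to 0.67), and the direction of these last values changed with the scaling or with the library left out. As fold changes, the Gucy2c interval runs from 0.850 to 1.25 times the Control level, given the spread among these libraries.

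SFB set against NFF gave the widest separation of the peptides. Guca2a fell by 1.20 ± 0.32 on the log2 scale (95% interval -1.89 to -0.50; limma adjusted p = 0.044), to a mean 0.444 times that of NFF. It was the only 1 of the 4 called, in a comparison where 769 genes were called (7.34%), 440 of them lower (4.2%) and 329 higher (3.14%). Guca2b differed by -1.50 ± 0.43 (-2.43 to -0.56) with a limma adjusted p of 0.055, just past the threshold, and its SFB mean was 0.412 times that of NFF. With an unadjusted p under 0.05 for 2 of the 4, the same comparison had 25.7% of all genes under that value. Both peptide genes had SFB libraries entirely below the NFF libraries, while 20% of all genes had groups that did not overlap in either direction. Gucy2c differed by -0.21 ± 0.12 (-0.47 to 0.047; adjusted p = 0.286) and Cftr by 0.21 ± 0.30 (-0.45 to 0.86; adjusted p = 0.702).

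The call of Guca2a was close to the threshold and depended on single libraries. It was lost without NFF 1 (-1.27, limma adjusted p = 0.068), NFF 2 (-1.18, 0.114), NFF 3 (-1.24, 0.083), NFF 4 (-1.09, 0.123), SFB 1 (-1.24, 0.077), SFB 3 (-1.25, 0.072), SFB 4 (-0.99, 0.085) or Control 5 (-1.20, 0.054), and with the replicate number as a block (-1.20, 0.131) or quantile normalization (-0.75, 0.161). Guca2b passed the threshold without SFB 2 (-1.74, limma adjusted p = 0.039), SFB 4 (-0.99, 0.040) or Control 2 (-1.50, 0.046). Control 2, SFB 2 and SFB 4 lie farthest from their groups over all genes. Without them together both were called, Guca2a at -1.04 (limma adjusted p = 0.013) and Guca2b at -1.10 (0.0097). Those libraries were picked from the same data by that distance, so leaving them out narrows the spread and can favour calls. Both differences were also smaller than with all libraries.

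**Figure D2:**
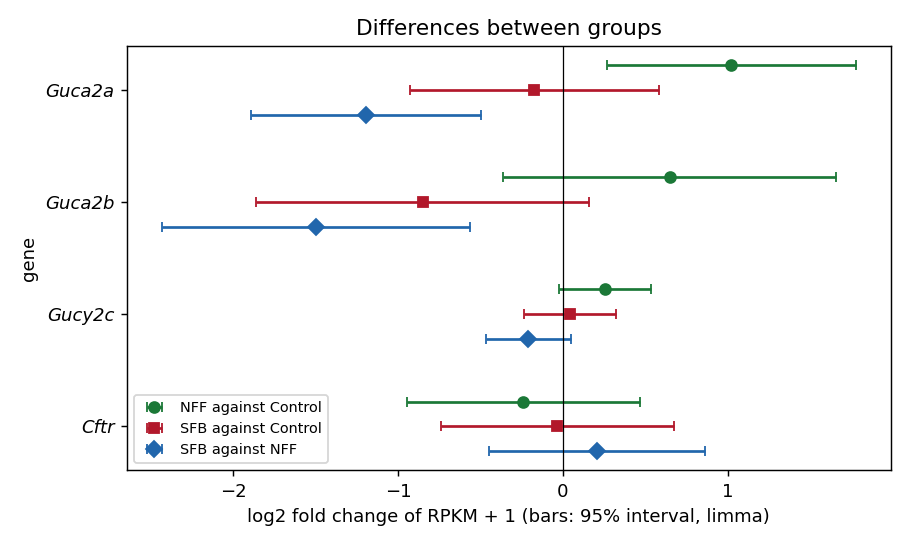
Log2 fold changes of RPKM + 1 (horizontal axis) for each gene (vertical axis) in the 3 comparisons; points are limma estimates and bars are 95% intervals. The intervals of SFB against NFF lie below 0 for Guca2a and Guca2b, whereas all 3 intervals of Gucy2c and Cftr include 0.

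The balance between the peptides was taken as the ratio of Guca2b to Guca2a, both per length. It was 0.439, 0.374, 0.412 and 0.382 in NFF 1 to 4, 0.466, 0.437, 0.318 and 0.170 in SFB 1 to 4, and 1.39, 0.296 and 0.341 in Control 2, 4 and 5. The NFF libraries were close together, SFB 4 was the lowest and Control 2 the highest of all 11. The groups overlapped, and two-sided exact permutation tests of the mean log2 ratio gave p = 0.857 for NFF against Control, 0.514 for SFB against Control and 0.486 for SFB against NFF, where the smallest possible p is 0.0286. The log2 difference of NFF against Control was -0.37, and 0.34 without Control 2.

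**Figure D3:**
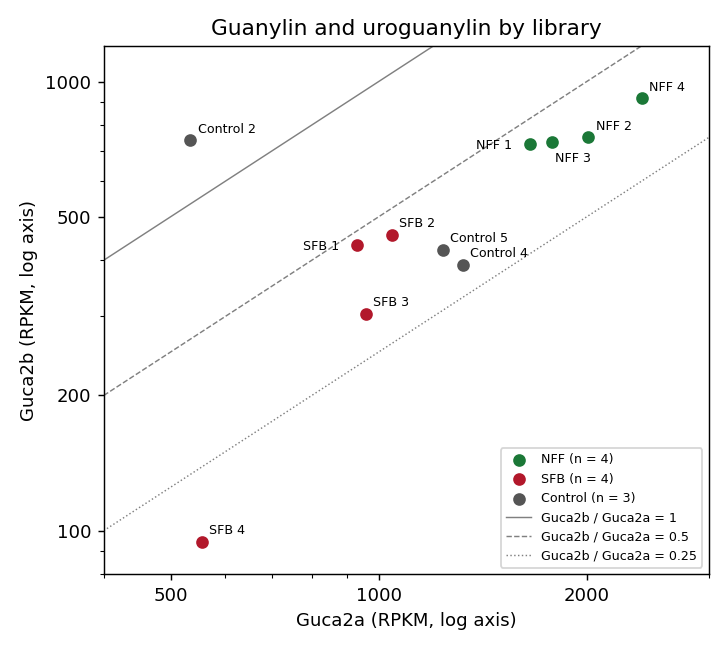
Guca2a (horizontal axis) and Guca2b (vertical axis) in RPKM on log axes, 1 point per library; grey lines mark constant Guca2b to Guca2a ratios. Control 2, at 534 and 740 RPKM, lies above the line of equal levels, and SFB 4, at 555 and 94.6 RPKM, lies below the line of 0.25.

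The summed peptide message per receptor message, (Guca2a + Guca2b) over Gucy2c, was 23.8, 28.1, 26.9 and 39.3 in NFF, 17.7, 19.4, 16.3 and 6.95 in SFB, and 17.4, 22.7 and 18.9 in Control. NFF was above both other groups without overlap, and SFB and Control overlapped. The mean log2 ratio was higher by 0.57 in NFF than in Control (two-sided exact permutation p = 0.057), differed by -0.48 between SFB and Control (p = 0.400) and by -0.14 without SFB 4, and was -1.05 in SFB against NFF (p = 0.0286, the smallest these libraries allow). Over the 6 ratio comparisons the adjusted p-values of the exact tests were 0.171 to 0.857, so none passed.

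Across the 11 libraries, with groups pooled, the peptides were correlated before adjustment and not after it. The permutations moved libraries between groups, so their p-values also take in differences between group means. Guca2a and Guca2b had a Pearson r of 0.64 (permutation p = 0.031, adjusted over 6 pairs 0.148) and a Spearman rho of 0.56 (permutation p = 0.078, adjusted 0.156). Without Control 2 and SFB 4, the libraries farthest from the Guca2a median, r was 0.91, and r was 0.25 for deviations from the group means. Guca2b and Cftr had r = -0.62 (permutation p = 0.049, adjusted 0.148) and rho = -0.56 (permutation p = 0.076, adjusted 0.156), or r = -0.12 without NFF 4 and SFB 4, on which the relation rested. The other 4 pairs had r between -0.27 and 0.46, with permutation p of at least 0.0763 by either measure. For deviations from the group means, r was 0.79 for Gucy2c and Cftr, -0.76 for Guca2b and Gucy2c and -0.72 for Guca2b and Cftr, given as a description. With groups pooled, Guca2b and Gucy2c had r = 0.039, or 0.59 without NFF 4 and SFB 4. How far the values for deviations rest on those libraries was not tested.

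Markers of cell types and of position along the gut also differed between these libraries. In bulk libraries, fewer cells of a type and less RNA per cell cannot be told apart. In SFB against NFF, 17 of 17 goblet markers were below 0 (median -0.93, 1 called lower), with summed levels of 3812 to 8775 RPKM in SFB and 6290 to 16683 RPKM in NFF. Enteroendocrine markers were below 0 in 17 of 18 cases (median -1.06, 2 called), at 252 to 971 RPKM in SFB and 924 to 3752 in NFF, Paneth markers in 13 of 13 (-1.80, 1 called), at 431 to 13969 RPKM in SFB and 12021 to 19788 in NFF, and tuft markers in 15 of 15 (-2.11, 14 called), at 15.2 to 88.9 RPKM in SFB and 193 to 368 in NFF. Over all genes the median was 0.020. No value of these lists was 0 in any library. Without Control 2, SFB 2 and SFB 4 the tuft list had 13 called, the enteroendocrine list 5, and the goblet list 0 at a median of -0.68, while the Paneth median was -0.34.

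Enterocyte markers were below 0 in 15 of 16 cases in SFB against NFF (median -0.64, 2 called), at 2350 to 8373 RPKM in SFB and 7157 to 8902 in NFF. Proliferation genes were above 0 in 20 of 20 (1.25, 2 called, and 13 called without Control 2, SFB 2 and SFB 4), at 128 to 525 RPKM in SFB and 70.6 to 107 in NFF. The enterocyte median without those libraries was -0.31. Of 12 crypt and stem cell markers 9 were above 0 and 3 below, 2 were called higher and 1 lower, and the median was 0.37. Cd44 and Olfm4, named after their values were seen, were those called higher. Values of the 1 called lower are not reported here. Cd44 was at 1.17 to 2.29 RPKM in SFB and 0.333 to 0.646 in NFF (0.80, limma adjusted p = 0.013), with Control at 0.457 to 0.969. It was not called in either comparison with Control. Olfm4, a crypt-base gene, was at 17.4 to 101 RPKM in SFB and 1.27 to 6.11 in NFF (3.00, limma adjusted p = 0.011). Markers of proximal small intestine had a median of -0.63 (13 tested, 0 called), those of distal small intestine -0.49 (15 tested, 1 higher and 1 lower) and those of the villus tip -0.42 (12 tested, 1 lower). Of the cells that the sort should remove, 4 leukocyte genes (1 higher) and 1 gene of endothelium and stroma (not called) were tested. In SFB against Control, 17 of 17 goblet (median -0.88), 15 of 15 tuft (-1.56) and 13 of 13 Paneth markers (-2.48) were below 0. So were 16 of 18 enteroendocrine (-1.09), 11 of 13 proximal (-1.01), 11 of 12 villus tip (-0.51) and 10 of 16 enterocyte markers (-0.16). Above 0 were 20 of 20 proliferation genes (0.59), 9 of 12 crypt and stem cell markers (0.24) and 12 of 15 distal markers (0.42). In these lists 0 were called by limma. Without Control 2, SFB 2 and SFB 4 the proliferation genes were 10 above and 10 below 0 (median 0.0033), and the medians were -0.64 for goblet, -1.23 for tuft and -0.67 for Paneth markers. Enterocyte markers were then 11 above and 5 below 0 (0.26). Further medians were -0.24 for enteroendocrine, -0.12 for proximal, -0.036 for villus tip, 0.041 for crypt and stem cell (1 called) and 0.015 for distal markers. The part of any of these lists in the peptide levels was not tested.

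Among single markers, the goblet mucin Muc2 stood at 93.1 to 293 RPKM in SFB and 198 to 609 in NFF, overlapping. Another goblet product, Clca1, stood at 382 to 829 RPKM in SFB and 630 to 2310 in NFF. The enteroendocrine granin Chga did not overlap, at 32.1 to 77.9 RPKM in SFB and 119 to 288 in NFF, and fell by 1.87 (limma adjusted p = 0.045). Dclk1, a tuft cell kinase, fell by 1.72 (limma adjusted p = 0.0022). Lyz1, the Paneth lysozyme, was at 28.1 RPKM in SFB 2 and 1284 to 2603 in the other SFB libraries, against 2273 to 4002 in NFF, and Guca2a was highest of the SFB libraries in SFB 2. Of the leukocyte genes, Ptprc was at 0.247 to 1.35 RPKM in SFB and 1.40 to 2.48 in NFF (limma adjusted p = 0.107). Itgam, an integrin of myeloid cells, was chosen after its values were seen and went the other way, at 5.47 to 12.7 RPKM in SFB and 1.12 to 3.48 in NFF, and rose by 1.41 (limma adjusted p = 0.019).

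The libraries where the peptides parted had marker levels of their own. Control 2 had Fabp6, an ileal bile acid binding protein, at 146 RPKM, whereas Control 4 and 5 had 3377 and 3773, and Apoa4, an apolipoprotein of proximal gut, at 2189 RPKM, against 54.8 and 145. Its Chga was 321 RPKM, against 60.1 and 59.9. SFB 4 had the lowest mean level of the enterocyte list (5.93 on the log2 scale, against 7.28 to 7.83 in SFB 1 to 3) and the highest of the proliferation list (4.46, against 2.52 to 3.08). In NFF 4 the peptides did not part, and both were at their highest, with Cftr at its lowest. Its goblet level was the highest of all libraries (7.75, against 6.12 to 7.33 in the other NFF libraries). So were its tuft (3.96) and enteroendocrine levels (5.55, with Control 2 also at 5.55), and its proliferation level was the lowest (1.77).

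**Figure D4:**
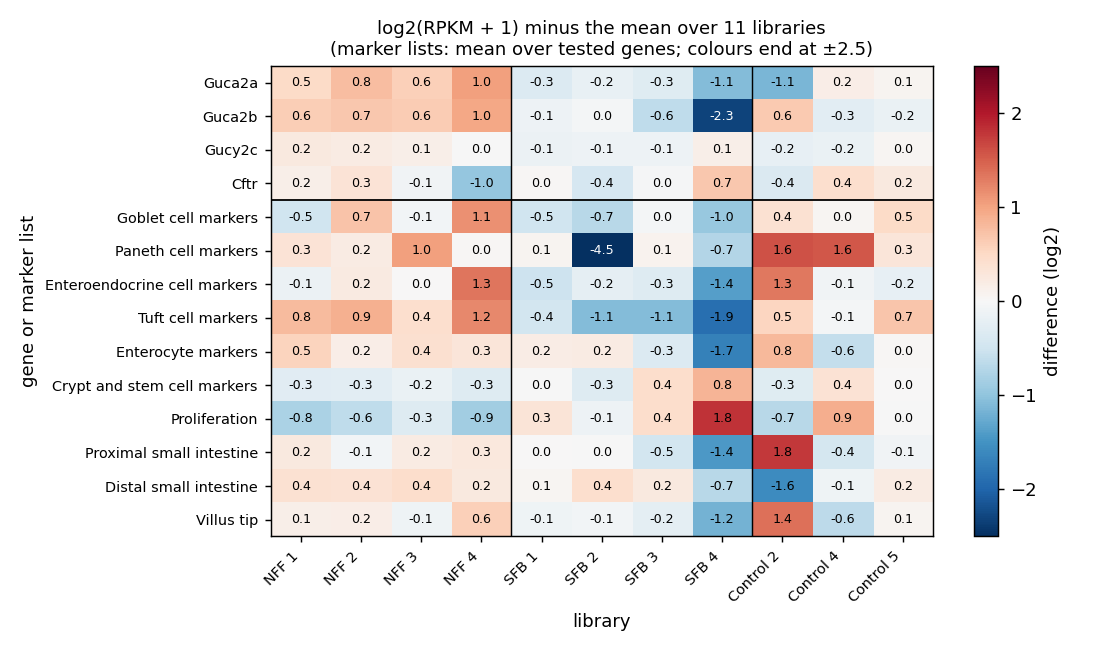
Difference of log2(RPKM + 1) from the mean over the 11 libraries (colour and printed value) for the 4 genes and for the mean of 10 marker lists, by library (columns, grouped as NFF, SFB and Control). Control 2 is high for proximal and low for distal markers, and SFB 4 is low for enterocyte, tuft and enteroendocrine markers and high for proliferation.

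Genes around the pathway were counted in 6 lists. Of 64 tested genes, 3 were called in SFB against NFF (4.69%, against 7.34% of all genes). In that comparison 14 had an unadjusted p under 0.05 (21.9%, against 25.7% of all genes). In either comparison with Control 0 were called. There 4 (NFF) and 11 (SFB) had an unadjusted p under 0.05, or 6.25% and 17.2%, against 4.82% and 12.1% of all genes. These shares were not tested against those of all genes. A further list of 12 other guanylyl cyclases and natriuretic peptide receptors was not analysed here.

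Of 13 cyclic GMP effectors and scaffolds, 1 fell in SFB against NFF, with a list median of -0.18. It was Pde2a, a phosphodiesterase that cyclic GMP stimulates, at 1.27, 1.61, 2.64 and 1.68 RPKM in SFB and 3.77, 7.64, 4.67 and 7.05 RPKM in NFF, without overlap. It fell by 1.26 ± 0.21 (limma adjusted p = 0.0055). In Control it stood at 3.99, 2.97 and 4.24 RPKM, above every SFB library, but that difference was not called (-0.77, adjusted p = 0.191). Prkg2 and Slc9a3 were picked after their values were seen. Prkg2, the kinase that acts on CFTR, averaged 10.4 ± 1.19 RPKM in NFF, 8.36 ± 1.70 in SFB and 10.2 ± 4.45 in Control (SD, n = 4, 4 and 3). Slc9a3, which encodes NHE3, averaged 14.7 ± 7.07, 21.8 ± 6.37 and 22.6 ± 16.2 RPKM in the same groups. Neither was called in any comparison (limma adjusted p of at least 0.367).

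Carbonic anhydrases supply the bicarbonate that leaves through CFTR and its partner exchangers. Of 6 tested, 1 rose and 1 fell in SFB against NFF. Car4, a membrane-anchored form, stood at 116, 149, 103 and 132 RPKM in SFB and at 61.0, 67.8, 69.2 and 59.1 RPKM in NFF, and rose by 0.94 ± 0.16 (limma adjusted p = 0.0055). Its Control libraries, at 103, 129 and 85.4 RPKM, were also above every NFF library, with a log2 fold change of NFF against Control of -0.69 that was not called (limma adjusted p = 0.566). Car7, a cytosolic form, fell by 0.87 (limma adjusted p = 0.038), at 0.195 to 0.854 RPKM in SFB and 0.997 to 2.37 in NFF, near the filter limit. Its call was lost without NFF 1, NFF 2, NFF 4, SFB 2, SFB 3, SFB 4 or Control 5 (limma adjusted p of 0.051 to 0.115, log2 values of -0.95 to -0.76) and with the replicate block (0.103), and was lost at -0.59 without Control 2, SFB 2 and SFB 4 (0.116).

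In the lists of ion transport and its control, 0 genes were called by limma in any comparison with all libraries. In SFB against NFF 1 secretagogue receptor was called with a pseudocount of 0.1, quantile normalization or only the groups compared, and without Control 2, alone or with SFB 2 and SFB 4. Without NFF 1 there was 1 apical gene called, and without Control 2, SFB 2 and SFB 4 there was 1 basolateral gene, both in that comparison and in NFF against Control. Of 10 apical exchangers and channels, 1 had an unadjusted p under 0.05 in SFB against NFF, the sodium channel subunit gene Scnn1a, at 1.18 to 1.62 RPKM in SFB and 1.75 to 6.95 in NFF (-0.94, limma adjusted p = 0.078). The chloride channel gene Ano1 was the lowest in p for NFF against Control, at 2.09 to 3.03 RPKM in NFF and 1.20 to 1.64 in Control (0.48, adjusted p = 0.785). Of 12 basolateral genes, 1 was under 0.05 unadjusted, the potassium channel gene Kcnn4, at 36.7 RPKM in SFB 4, 9.26 to 13.2 in SFB 1 to 3 and 6.31 to 8.66 in NFF (0.96, limma adjusted p = 0.136). Of 6 secretagogue receptors, Galr1, a galanin receptor, was at 0.113 to 0.900 RPKM in SFB and 1.45 to 4.91 in NFF (-1.23, limma adjusted p = 0.053), and Vipr1, the receptor for vasoactive intestinal peptide, differed by -0.38 (0.153).

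Of 17 transcription factors of intestinal identity and lineage, 0 were called by limma with all libraries. In SFB against NFF 2 were called in 1 of the 11 fits that left out 1 library. With all libraries, 6 had an unadjusted p under 0.05 in SFB against NFF and 5 in SFB against Control, where 25.7% and 12.1% of all genes did. Foxa3 stood at 12.4 to 20.7 RPKM in SFB and 27.5 to 37.6 in Control (-1.19, limma adjusted p = 0.302). In NFF it ran from 12.1 to 66.1 RPKM, overlapping both other groups. Foxa1 differed by -0.46 in SFB against NFF (limma adjusted p = 0.119). Cdx2, picked after its values were seen, encodes a factor known to act on Gucy2c. It averaged 86.3 ± 8.75 RPKM in NFF, 72.5 ± 13.3 in SFB and 86.9 ± 15.4 in Control (SD, n = 4, 4 and 3), with limma adjusted p of at least 0.333.

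**Figure D5:**
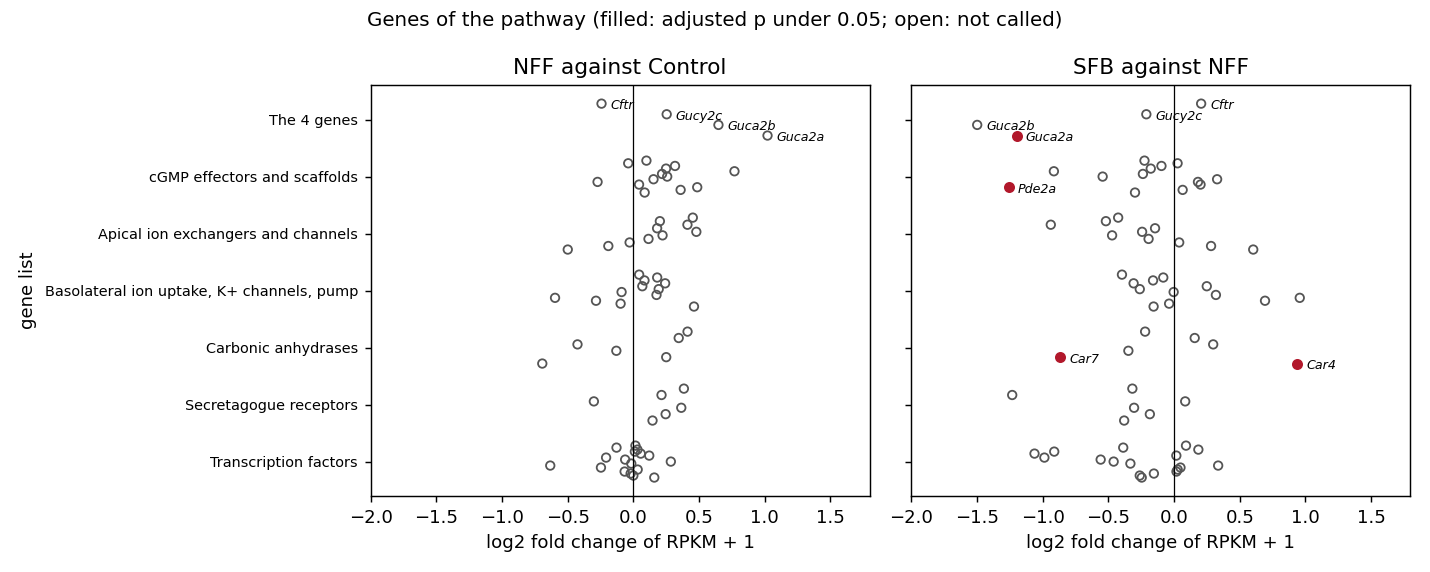
Log2 fold changes of RPKM + 1 (horizontal axis) for the 4 genes and the tested genes of 6 pathway lists (rows), for NFF against Control and SFB against NFF; filled points were called and open points were not. In NFF against Control no point is filled, and in SFB against NFF Guca2a, Pde2a and Car7 are filled below 0 and Car4 above 0.

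The 250 bases before the RefSeq start sites of both peptide genes are shown because these genes are neighbours whose messages were both lower in every SFB library than in every NFF library. They were taken from RefSeq promoters of GRCm38.p6, which matched 3 of the 4 genes, and are given in the direction of transcription, at chr4:119637482-119637731 for Guca2a and chr4:119658946-119659195 for Guca2b. The RefSeq starts, from which distances are counted, are at 119637732 and 119658945, so 28 and 9 bases of the windows lie inside the GENCODE genes. Capitals mark matches on either strand to AGATAA, the site that factors of the GATA family bind.
Guca2a: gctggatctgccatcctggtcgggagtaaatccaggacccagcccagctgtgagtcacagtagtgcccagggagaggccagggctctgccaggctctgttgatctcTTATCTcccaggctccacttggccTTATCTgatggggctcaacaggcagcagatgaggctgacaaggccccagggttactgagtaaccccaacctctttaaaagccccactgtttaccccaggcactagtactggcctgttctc
Guca2b: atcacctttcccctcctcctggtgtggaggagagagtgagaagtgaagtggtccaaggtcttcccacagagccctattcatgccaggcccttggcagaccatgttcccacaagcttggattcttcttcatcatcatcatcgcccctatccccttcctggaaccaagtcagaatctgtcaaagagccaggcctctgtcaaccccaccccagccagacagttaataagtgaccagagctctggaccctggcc
Guca2a held 2 matches to this site, 144 to 139 and 120 to 115 bases before its start, and Guca2b held none. Of 32851 promoter windows of the same length, 9.99% held it. The CDX core, spelled TTTAT and present in 37.3% of windows, was searched in the same way and had no match in either peptide gene. Cftr held neither spelling in its window, where 76.4% of bases were G or C. A match of letters does not show that a factor binds.

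The genes whose levels over the 11 libraries were most like each of the 4 were different sets. The measure was the Pearson r of log2(RPKM + 1) with 7607 genes of at least 3 RPKM on average, given as a description with no p, since all values share the same libraries and groups. For Guca2a these were Neu1, a lysosomal sialidase (r = 0.95), Plcd1, a phospholipase C (0.94), Gsdme, a gasdermin (0.94), Rdm1 (0.93) and Gm9926 (0.93). For Guca2b they were Nat8 (0.99), Naprt, an enzyme of NAD synthesis (0.99), Acaa1a, a peroxisomal thiolase (0.98), Vat1 (0.98) and Hpgd, which breaks down prostaglandins (0.98), and r within groups was 0.96 to 0.99. For Gucy2c they were Oaf (0.95), Slc4a2, a chloride bicarbonate exchanger (0.93), Llgl2, a polarity protein (0.92), Srebf1, a lipid synthesis regulator (0.90), and Clstn1 (0.89). For Cftr they were Ube3c, a ubiquitin ligase (0.97), Exoc8 of the exocyst (0.95), Wac (0.94), Lrrc47 (0.93) and Stau1, an RNA binding protein (0.93).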

How the data were processed

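The authors deposited 1 table of RPKM values, per the file headers, for 11366 genes in 11 libraries. RNA was made into cDNA with the SMART-seq v4 kit and into libraries with NexteraXT, per the labels' protocols, and reads were aligned with STAR to mm10, per the submitters' processing notes. How reads were counted, and with which gene lengths, is not stated, the depth of each library is unknown, and no counting interval can be given. Summed RPKM was 237248 to 302661 per library.

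RPKM is not a count, so log2(RPKM + 1) was fitted with limma 3.58.1 (R 4.3.3), 1 mean per group over all 11 libraries (8 residual degrees of freedom), with eBayes and a mean trend. Genes with at least 1 RPKM in at least 3 libraries were tested. The fit was tested on simulated data. Ratios were compared by two-sided exact permutation tests and correlations by 100000 permutations (scipy 1.17.1, Python 3.11.15). Alternatives covered pseudocounts, filters, scaling, trend, the groups fitted, a replicate block and libraries left out. Counts for the lists under alternatives were added after seeing the data.

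The text names the 4 genes, list genes that were called (or else the 2 of lowest unadjusted p), 8 marker genes, and the 5 genes most like each of the 4. Some items that this rule names are not reported here. Genes, lists and tests were chosen with earlier results of these data known. Coordinates are from GENCODE M21 (GRCm38, the assembly that mm10 names).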

Additional observations from a re-analysis of the deposited data

Results flagged for a closer look

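Of 12 sets of 4 libraries examined (4 genes and 2 ratios, in NFF and in SFB), 3 held a library set apart from the others. Its gap to the nearest other exceeded Dixon's 95% critical value for the share of the set's range, where chance flags about 1 in 20. The sets reuse the same libraries and the ratios are made from the same genes, so the 3 cannot be set against that rate. Guca2b stood at 917 RPKM in NFF 4, against 727 to 752 in the other NFF libraries. Gucy2c stood at 93.5 RPKM in SFB 4, against 77.0 to 77.3 in the other SFB libraries. The log2 ratio of summed peptides to Gucy2c was 2.80 in SFB 4, against 4.03 to 4.28 in the other SFB libraries.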

How the results depend on the processing

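Whether the replicate numbers pair the libraries cannot be settled from so few shared numbers. Deviations of same-numbered libraries correlated at -0.30 to 0.028 for SFB and NFF, -0.28 and -0.17 for NFF and Control, and 0.20 and 0.67 for SFB and Control. With the replicate block, Guca2a in SFB against NFF was -1.20 (limma adjusted p = 0.131) and in SFB against Control 0.024, and 335 genes were called in SFB against NFF and 0 in SFB against Control. Quantile normalization gave Guca2a -0.75 in SFB against NFF (0.161) and 0.34 in SFB against Control, Cftr 0.017 in SFB against Control, and 1173 called genes in SFB against NFF. Fitting only the groups compared called 1 gene in NFF against Control and 1 in SFB against Control, and median ratio scaling called 11 in SFB against Control. Without Control 2, SFB 2 and SFB 4, 22 genes were called in NFF against Control and 95 in SFB against Control, Guca2b in SFB against NFF was -1.10, Gucy2c in SFB against Control -0.076, and the log2 Guca2b to Guca2a ratio 0.34 in NFF against Control and 0.28 in SFB against Control. Control 2, SFB 2 and SFB 4 were left out because they lie far from their groups in the same data, which can favour calls. The cause of the shifts listed here was not tested.

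Leaving out 1 library at a time, Guca2a ranged from -1.30 to -0.99 and Guca2b from -1.74 to -0.99 in SFB against NFF. Directions changed for Cftr in NFF against Control (-0.48 to 0.031), SFB against Control (-0.27 to 0.13) and SFB against NFF (-0.066 to 0.37), and in SFB against Control for Guca2a (-0.59 to 0.060) and Gucy2c (-0.025 to 0.12). They also changed for the log2 Guca2b to Guca2a ratio, in NFF against Control (-0.78 to 0.34, positive without Control 2), SFB against Control (-1.08 to 0.030, positive without Control 2) and SFB against NFF (-0.48 to 0.0033, positive without SFB 4). Called genes numbered 0 to 8 in NFF against Control, 7 to 94 in SFB against Control and 240 to 994 in SFB against NFF. Library depth is unknown, so its effect on low values such as those of Car7 could not be measured.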
